A study of Mus musculus with 182 samples.

Results

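Single blastomeres of 8-cell (8C) mouse embryos from the 2 directions of a cross between C57BL/6J (B6) and Cast/EiJ (Cast) were compared. In BC embryos the mother was B6 and the father Cast, and in CB embryos the mother was Cast and the father B6. The cells were taken by their labels: 8-cell stage, female, wild type, with 19 BC cells and 4 CB cells out of the 182 cells of the series. This comparison was chosen with earlier results of these data known. All embryos came from natural matings with no embryo culture, and poly(A) RNA from single cells was copied from its 3′ end, amplified and sequenced as 50-base single-end reads. Groups set beside them were 5 BC males and 1 CB male at 8C, 7 CB females at 8C with the Xist genotype wt/ko, the wild-type BC and CB cells from 2C to 64C, and 4 B6 and 3 Cast oocytes. The labels name no embryo, so cells of 1 cross may be sisters. Each cross was therefore treated as 1 sample at this stage, and the crosses were not tested against each other over single cells.

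In a hybrid embryo each gene has 1 maternal and 1 paternal allele that differ by strain-specific variants, so reads over those variants can be assigned to a parent. One direction of a cross cannot separate parent from strain, since the paternal allele is always of the same strain. Reciprocal crosses can: a gene read from the same parent in both directions shows parent of origin, as imprinted genes, the paternal Xist allele and messages left over from the oocyte do, while a gene read from the same strain changes parent when the cross is turned around. By the 8-cell stage the mouse embryonic genome has long been active, most oocyte messages have decayed, and blastomeres are about to compact and polarise. Differences in total expression between reciprocal crosses can follow the mother's strain, the father's strain or the exact age of the embryos collected.

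The depth of a cell was 2.72 M to 12.8 M gene counts (M, 1000000). The CB cells held 6.89 M to 10.4 M counts and 7291 to 8904 genes with 10 counts or more, within the 5864 to 9869 genes of the BC cells. The closest pair of cells of a group still differed far beyond sampling noise, at 91.4 times the chi-square expected from sampling, so no library was counted as a duplicate. Female labels held, as the 23 cells had 2 to 65 counts over all Y-linked genes listed. Early-embryo genes marked every cell: the homeobox gene Obox6 lay at 854 to 2697 CPM (counts per 1000000 counts) and the maternal and embryonic factor Dppa3 at 1475 to 5923 CPM. Listed genes of the somatic cells that surround the oocyte ranged from no read to 378 CPM in a cell. The receptor Fshr had no read in any of the 23 cells, and Foxl2, Amh, Cyp19a1 and Has2 reached at most 1.09 CPM in a cell. The summed level of the 17 cumulus and granulosa genes was 1.84 to 40.9 CPM in BC cells 1 to 11, 40.5 to 425 CPM in BC cells 31 to 45 and 13.1 to 74.9 CPM in CB cells, and Amhr2 alone reached 378 CPM in a cell of the second BC set. Star had 10 counts or more at least in BC cells 31, 32, 33 and 41 and CB cell 17, and Cyp11a1 at least in BC cell 31. Whether these reads came from somatic cells was not tested.

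The BC cells fell into 2 sets that follow the numbers in their titles, 8 cells numbered 1 to 11 and 11 cells numbered 31 to 45. The labels do not say what these numbers mark. Over 6849 genes, Pearson's r of log2(CPM + 1) between cells was 0.571 to 0.805 within the first set (median 0.707) and 0.643 to 0.810 within the second (median 0.716). Between the sets it was 0.304 to 0.577 (median 0.454), so that the highest value between the sets just passed the lowest value within one. The 4 CB cells resembled each other at 0.698 to 0.784, and they lay closer to BC cells 31 to 45 (median 0.619) than to BC cells 1 to 11 (median 0.522). Against the mean profiles of other stages over 8438 genes, BC cells 1 to 11 correlated at 0.899 with 4C BC and 0.648 with 16C BC, and BC cells 31 to 45 at 0.720 and 0.85. The CB cells correlated at 0.749 with 4C BC and 0.803 with 16C BC, but at 0.796 with 4C CB and 0.768 with 16C CB, so the stage they resembled more depended on the cross of the profile. The first BC set thus resembled the stage before and the second the stage after, and differences of level and list medians below are given against both where they turn with the set. The depth also differed, with 2.72 M to 9.35 M counts in the first set and 9.09 M to 12.8 M in the second. Its part in the differences was not tested.

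**Figure D1:**
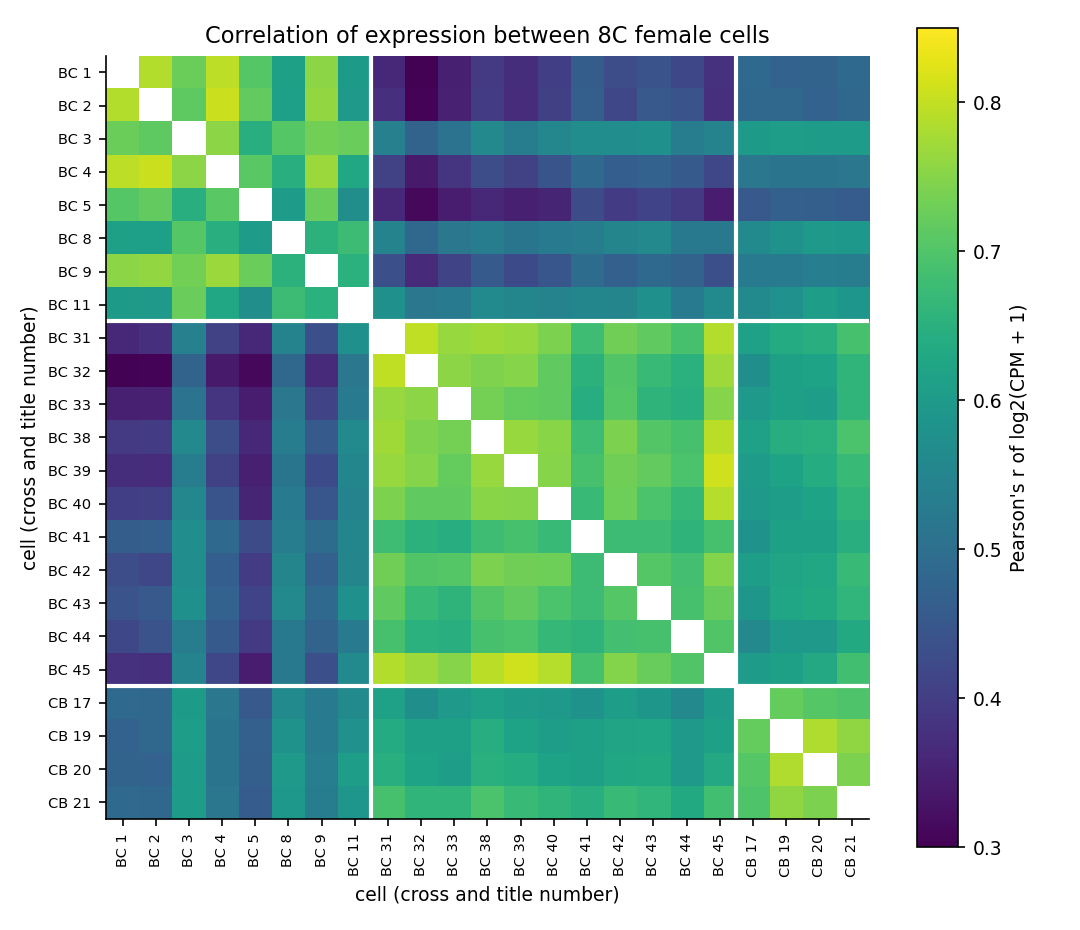
Pearson correlation of log2(CPM + 1) between each pair of the 23 wild-type 8C female cells over 6849 genes; rows and columns are cells, and colour gives r. BC cells 1 to 11, BC cells 31 to 45 and the CB cells form 3 blocks, and the lowest values, down to 0.304, lie between the 2 BC sets.

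Both parental genomes were read in every cell, and the paternal genome contributed slightly less than the maternal in BC cells and about as much in CB cells. The paternal share of a gene is the fraction of its allele-assigned reads that came from the father's allele. Averaged over autosomal genes, it was 0.418 to 0.470 in the BC cells, with a median of 0.453. In CB cells 17, 19, 20 and 21 it was 0.50, 0.499, 0.487 and 0.506. Every CB cell lay above every BC cell of both sets, whose means were 0.451 for cells 1 to 11 and 0.448 for cells 31 to 45. The 8C males had the same order, with 0.391 to 0.455 in the 5 BC cells and 0.498 in the CB cell. The 7 CB females labelled Xist wt/ko lay at 0.473 to 0.502.

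**Figure D2:**
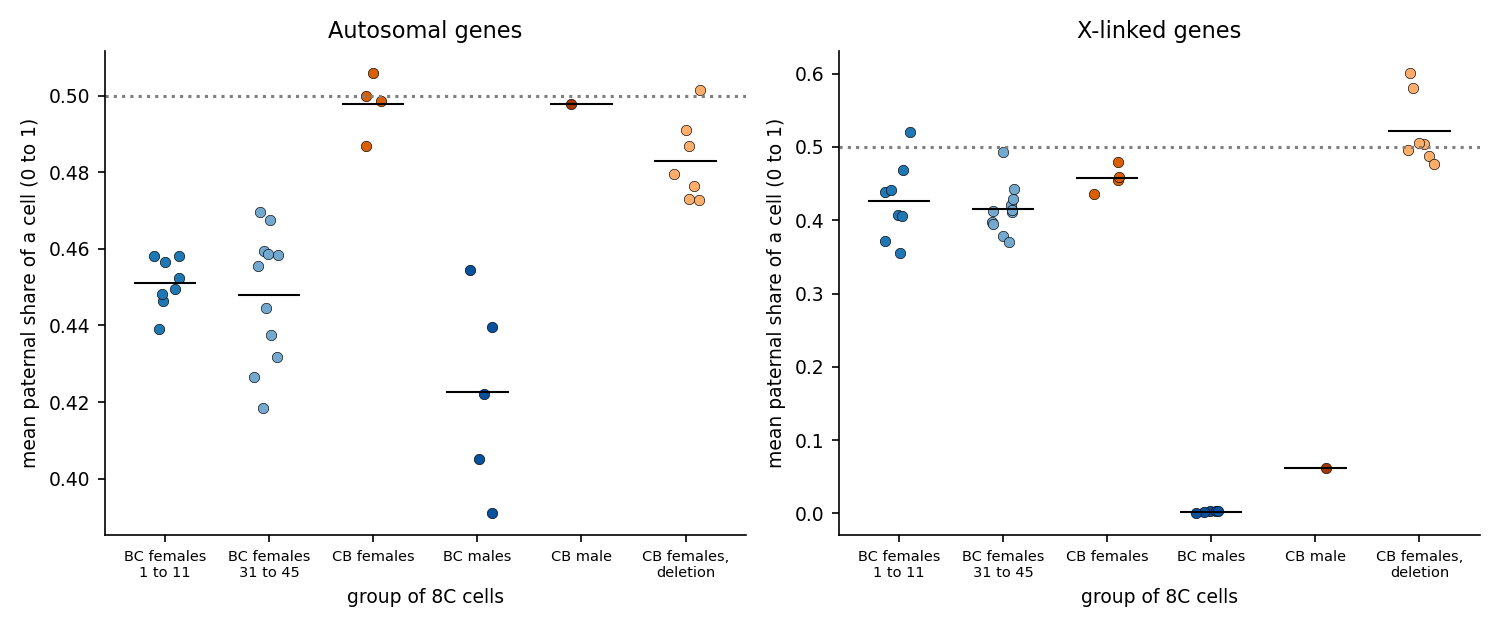
Mean paternal share of each 8C cell over autosomal genes (left) and X-linked genes (right), on a scale from 0 to 1 with different axis ranges; points are cells, bars are means of the cells shown and the dotted line marks 0.5. On the autosomes all CB females lie between 0.487 and 0.506, above the highest BC female at 0.470, and on the X the females of both crosses overlap while males lie near 0.

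The same difference recurred over development. With 1 value for each of 11 pairs of stage and sex, the autosomal share was higher in CB by 0.0430 ± 0.0337 (SD, n = 11 pairs), in 10 of the 11 pairs (exact two-sided permutation test of the paired differences, p = 0.00195; the smallest possible is 0.000977). Both groups held more than 1 cell in only 7 of the 11 pairs. The CB side of the 2C female pair was 1 cell, the one with conflicting labels. Without the 8C females the 10 other pairs gave 0.0426 ± 0.0354 with 9 of 10 higher in CB (exact permutation p = 0.00391). The pair that went the other way was not the 8C one: 64C females differed by -0.0030, and 64C males by 0.0209, 16C females by 0.0327 and 8C females by 0.0468. Splitting the 8C values into a parental and a strain effect gave a paternal effect of -0.0241 from a share of 0.5, as the mean of both crosses, and a share of B6 alleles 0.0234 above 0.5. The mean parental effect over the 11 pairs was -0.0339 ± 0.0554 (SD) and did not pass the exact permutation test (p = 0.0576).

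On the X chromosome, where imprinted inactivation of the paternal X is beginning at these stages, the paternal share was 0.355 to 0.520 in BC cells (median 0.413). In CB cells 17, 19, 20 and 21 it was 0.436, 0.455, 0.479 and 0.459. The crosses overlapped in single cells, and the X-linked share was below 0.5 in all 4 CB cells. Over the 6 female pairs it was higher in CB by 0.0540 ± 0.0452 (SD), in 5 of 6 pairs (exact permutation p = 0.0625, with 0.0313 the smallest possible). Without the 8C females the difference was 0.0558 in 5 pairs (exact permutation p = 0.125). In males, with 1 maternal X, the share was 0.000703 to 0.00397 in the BC cells and 0.0626 in the CB cell.

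Xist, the non-coding RNA that coats the X to be silenced, came from the father in both crosses but at different levels. Its paternal share was 0.995 over 17 BC cells (0.984 to 1) and 1 in CB cells 17, 19 and 20, the 3 CB cells with a deposited share. Xist (X chromosome, 103460373 to 103483233, GRCm38) lay at 19.5 to 566 CPM in BC cells with a median of 164 CPM. In CB cells 17, 19, 20 and 21 it was 80.1, 29.7, 9.73 and 4.50 CPM. The mean in CB was lower by a log2 difference of -2.57, -2.55 against BC cells 1 to 11 and -2.58 against BC cells 31 to 45, and the lowest BC cell lay below 2 of the 4 CB cells. Wild-type 4C females averaged 106 CPM in BC and 56.3 CPM in CB, and 16C females 64.5 and 86.8 CPM. Males stayed at or under 1.72 CPM and oocytes averaged 1.16 CPM in B6 and 0.512 CPM in Cast. In the edgeR model over 11 pairs, described below, the 8C difference of Xist did not pass (adjusted p = 0.9999). Rlim, an X-linked ubiquitin ligase that activates Xist and acts from the maternal allele in early embryos, was read mostly from the mother, with a paternal share of 0.10 in 19 BC cells and 0.105 in 4 CB cells. Rlim stood at 45.4 to 625 CPM in BC cells and at 31.1 to 128 CPM in CB cells.

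Gene by gene, 3953 autosomal and 103 X-linked genes had a share in at least 3 cells of each cross, counting a cell only where the gene had 10 counts or more. The median gene had a share of 0.463 in BC and 0.493 in CB on the autosomes. Classes were set on the mean share over cells, at or under 0.15 and at or over 0.85. On the autosomes 12 genes (0.304%) were read from the father in both crosses and 6 (0.152%) from the mother. The Cast allele was read in both crosses for 26 genes (0.658%) and the B6 allele for 43 (1.09%). On the X the paternal class held 3 genes (2.91%) and the maternal class 1 (0.971%), and no X-linked gene fell in a strain class. Strain classes thus held more genes than parental classes on the autosomes, and most genes lay in none of the 4 corners. Reading from almost 1 allele alone was common in single cells. It held for 20.6% to 42.5% of the autosomal genes measured in a BC cell and 13.3% to 32.7% in a CB cell. A class that rests on 3 or 4 cells is therefore less certain, and the part of such single-cell reading was not tested.

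**Figure D3:**
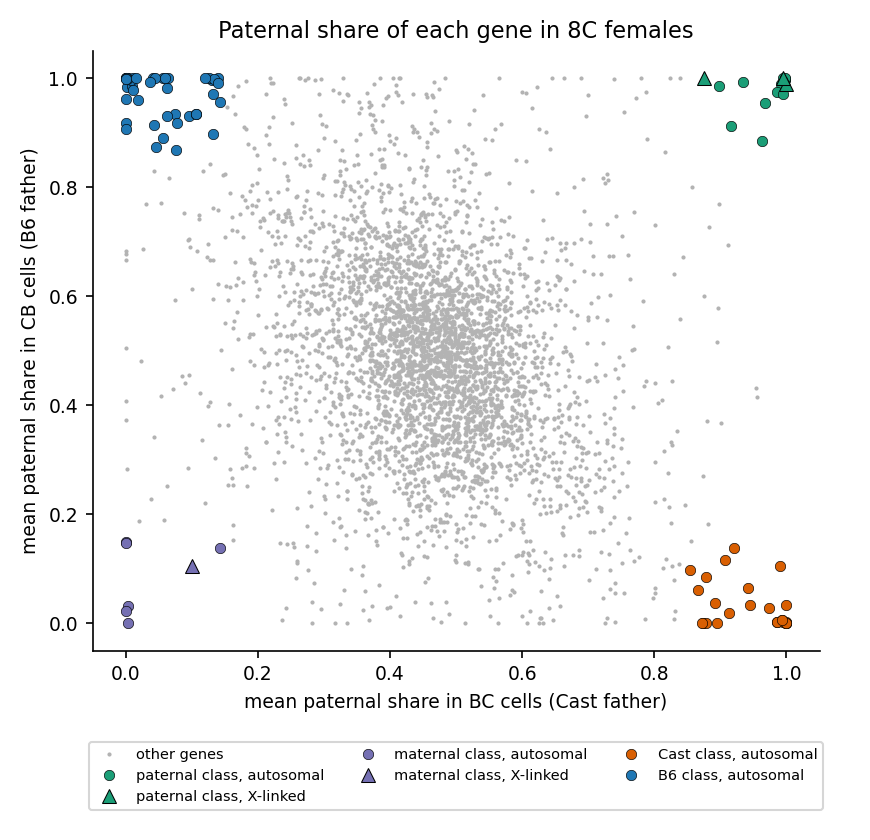
Mean paternal share of each gene in BC cells (x axis, Cast father) against CB cells (y axis, B6 father), both from 0 to 1, for genes with a share in at least 3 cells of each cross. The upper right corner holds the 12 autosomal and 3 X-linked genes read from the father, the lower left the maternal class, and the other corners the 43 B6 and 26 Cast genes.

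The paternal class joined known imprinted genes and others. Mcts2, an imprinted retrogene inside an intron of H13 (chromosome 2, 152687148 to 152687946), had a paternal share of 0.995 in 14 BC cells and 1 in each of the 4 CB cells. Gab1, an adaptor of receptor signalling that is imprinted in the placenta (chromosome 8, 80764431 to 80880519), had 0.998 in 14 BC cells and 0.992 to 1 in the CB cells. Fkbp6, a co-chaperone of meiosis (chromosome 5, 135291704 to 135351809), had 0.968 in 19 BC cells and 1, 0.993, 1 and 0.821 in the CB cells. Epas1, the hypoxia-inducible factor 2 alpha gene (chromosome 17, 86753864 to 86833410), had 0.995 in 13 BC cells and 1, 1, 1 and 0.886. Within this class CB cell 21 was the cell with the lowest share for both Fkbp6 and Epas1, and also for Ddah1, an arginine-metabolism enzyme (0.996, 1, 0.988 and 0.667 in CB cells, 0.917 in 19 BC cells). The remaining autosomal members were Bbx, Atxn10, Pelo, Vrk3, Pcsk6, Mboat1 and 2400006E01Rik, with shares of 0.897 to 0.997 in BC and 0.885 to 1 in CB. The X-linked members besides Xist were Gm364 and the ferritin-like Fthl17f, whose relatives in the same cluster are closely similar in sequence, so that its reads may be shared among them.

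Most of these genes differed by less than 4-fold in level. Of the 12 autosomal members 8 were higher in CB, and 1 passed a 4-fold difference between the crosses, Bbx, with a mean of 134 CPM in BC and 25.5 CPM in CB. Fkbp6 averaged 93.3 and 89.97 CPM, and Ddah1 104 and 108 CPM. Cells that the class did not use held the same bias in most cases. In the CB females labelled Xist wt/ko all 8 members with a value in 3 cells or more lay past 0.85, where 3.46% of all genes measured there did. Of the 4 members with fewer cells there, Vrk3 was at 0 in its 1 cell. In BC males 9 of 10 members with 3 cells or more lay past 0.85, against 2.04%.

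A test of parent of origin in other cells was possible over 7 other pairs of stage and sex, from 8C males to 64C, for 3957 genes. A group share in those pairs needed no minimum of cells, and the CB males at 8C and at 16C were 1 cell each. Parental effects (the mean share of both crosses minus 0.5) passed limma with an adjusted p under 0.05 for 20 genes (0.505%), all toward the father. Of the paternal class 11 autosomal members could be tested, 9 passed and all 11 had a positive effect, with a median of 0.445. The effect was 0.495 ± 0.0125 (SE) for Mcts2 (adjusted p = 4.19e-07, limma, 6 pairs), 0.479 ± 0.0142 for Epas1 (adjusted p = 4.06e-07, limma, 7 pairs) and 0.476 ± 0.0188 for Fkbp6 (adjusted p = 1.66e-06, limma, 7 pairs). Values were 0.445 ± 0.0307 for Gab1 (adjusted p = 0.000244, limma) and 0.493 ± 0.0220 for Xist in 3 female pairs (adjusted p = 0.00124, limma). Ddah1, at 0.271 ± 0.0531 (adjusted p = 0.111, limma), and Pcsk6, at 0.162 ± 0.0797 (adjusted p = 0.585, limma), did not pass. In the 8C female pair itself 6 genes passed (0.152%), and no gene passed for a difference between 8C females and the other pairs, with 73 at an unadjusted p under 0.05.

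**Figure D4:**
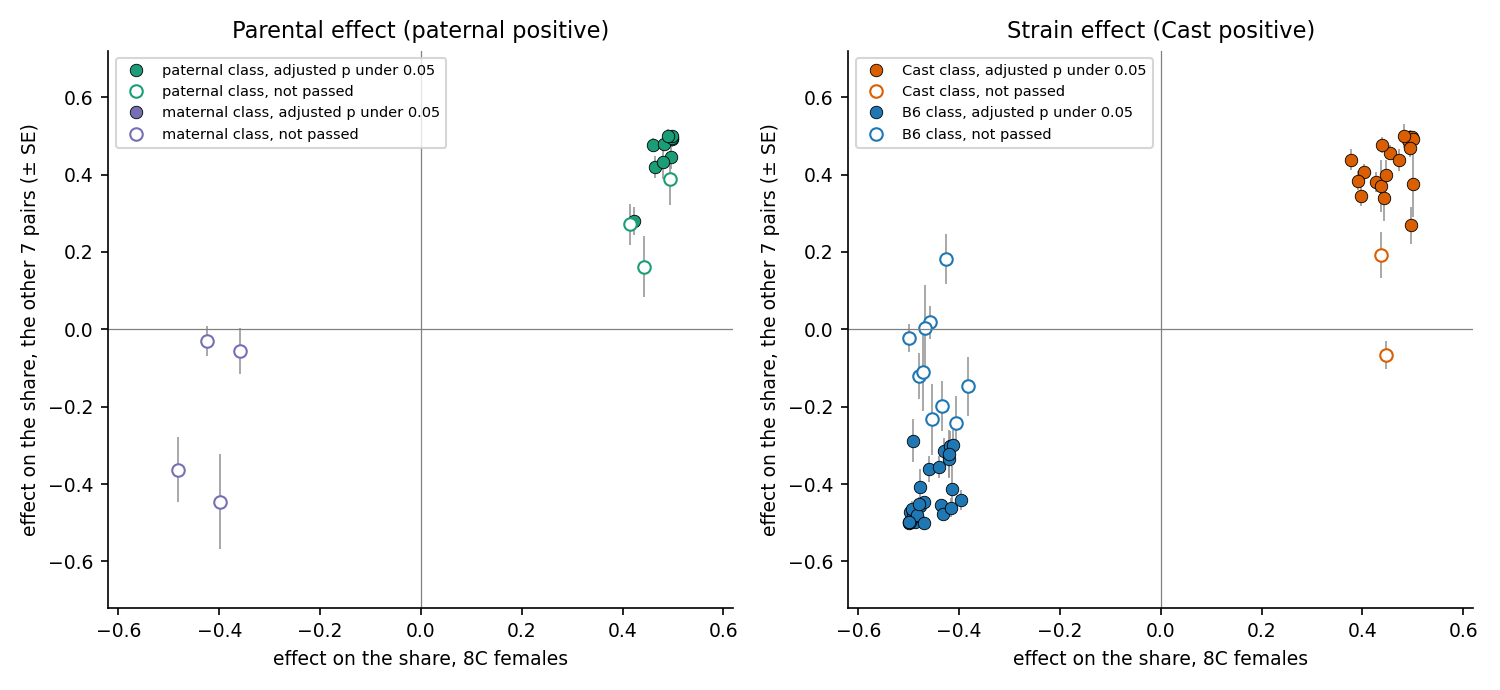
Effect on the share in 8C females (x axis) against limma's estimate in the other 7 pairs of stage and sex with its SE (y axis), for the parental (left) and the strain effect (right) of the genes in each class; filled points passed an adjusted p of 0.05 in the other pairs. All paternal genes, 20 of 21 Cast genes and 35 of 38 B6 genes lie at effects of the same sign on both axes, with 9 of 11 autosomal paternal members filled and no maternal member filled.

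The maternal class held oocyte messages. Nlrp5, a component of the subcortical maternal complex (chromosome 7, 23385889 to 23441923), had a paternal share of 0.00396 in 14 BC cells and 0 in 3 CB cells. The zona protein gene Zp2 had 0 in 8 BC cells and 0.0234 in 3 CB cells. Gdf9, an oocyte growth factor, had 0.00115 in 11 BC cells and 0.00885, 0.0149, 0.0357 and 0.533 in the CB cells. The paternal share of Gdf9 was thus high in CB cell 21 alone, and a share does not give the number of reads behind it. All 8 measured genes of the oocyte list lay on the maternal side as the mean of the crosses, with a median parental effect of -0.319, against -0.0202 for all 3953 autosomal genes. The other members were Ldhb, a subunit of lactate dehydrogenase (0.00329 and 0.0311), Uchl1 (0.143 and 0.139) and Tm7sf3 (0 in 4 BC cells and 0.149 in 3 CB cells). Uchl1 was read from both alleles in BC cells 1 to 11, at 0.504 in 3 cells, and from the mother in BC cells 31 to 45, at 0.0443. In the 7 other pairs 3 autosomal members and Rlim could be tested: all had a negative effect and none passed, with -0.362 ± 0.0827 (SE) for Ldhb (adjusted p = 0.197, limma) and -0.446 ± 0.124 for Rlim (adjusted p = 0.374, limma). Over all genes tested there none passed toward the mother, with 4 in limma without trend and 1 without the 8C males.

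The strain classes changed parent with the cross. Among genes read from the Cast allele, Adtrp, a hydrolase of fatty acid esters, had a paternal share of 0.945 in 18 BC cells and 0.10, 0.0328, 0 and 0.00358 in the CB cells. Morf4l1, a chromatin protein of the NuA4 complex, had 0.994 and a mean of 0.00645. Among genes read from the B6 allele, Pramel4, of a multicopy family of early-embryo genes, had 0.0621 in 19 BC cells and 0.942, 1, 0.992 and 0.993 in CB cells. Tnfrsf22, a decoy receptor (chromosome 7, 143634808 to 143649675), had 0.0110 in 19 BC cells and 1 in each CB cell, and its total level averaged 535 CPM in BC and 75.7 CPM in CB. Ola1 had 0.0424 and 0.914, and Tmppe 0.12 and 1. Several of the strongest members, among them Ubb, Rps15a, Rpl37, Gm9199, Gm9376 and Gm20594, have near-identical copies or retrocopies elsewhere in the genome, so reads of one copy may have been assigned to another and their shares are uncertain.

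Strain effects recurred in other cells more often than the background. In the 7 other pairs 19 of 21 testable Cast members passed limma toward Cast, where 4.09% of the genes tested did (9.81% passed in either direction), and 28 of 38 B6 members toward B6, where 5.71% did. The estimate was 0.457 ± 0.0191 (SE) for Adtrp (adjusted p = 5.01e-07, limma) and -0.361 ± 0.0338 for Pramel4 (adjusted p = 0.000146, limma), with positive values toward Cast. In the 8C female pair 37 genes passed for strain (0.935%), and none for its difference from the other pairs, with 74 at an unadjusted p under 0.05. For total level 23 Cast and 38 B6 members were tested, and 6 of them were past 4-fold between the crosses. Tnfrsf22 was higher in BC, where 11.5% of all genes were. Dbhos, Gltp, Ly6e, Ptges and Akr1c21 were higher in CB, where 3.12% of all genes were.

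Ly6e, a lymphocyte antigen 6 family gene (chromosome 15, 74955025 to 74959904), was read from a strain in 8C females and from a parent at later stages. At 8C its paternal share was 0 in 4 BC cells, all of the second set, and 1, 1 and 0.997 in CB cells 19, 20 and 21, which is the B6 allele in both crosses. The BC males had 0.0167 in 4 cells and the CB females labelled Xist wt/ko 0.999 in 6 cells. The CB male had no value. In the 5 other pairs with a value in both crosses, all of later stages, it was read from the father, with a parental effect of 0.470 ± 0.0246 (SE, adjusted p = 0.00017, limma) and a strain effect of -0.0226 ± 0.0351 (adjusted p = 0.758, limma). The difference in the parental effect did not pass over all genes (-0.471 ± 0.0603, adjusted p = 0.446, limma). Its level averaged 5.61 CPM in BC and 128 CPM in CB. Akr1c21, an aldo-keto reductase that acts on steroids, was read from the Cast allele alone in both crosses, with shares of 1 in 3 BC cells and 0.000625 in 4 CB cells.

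Of 27 listed imprinted genes expressed from the father, 4 had a share in at least 3 cells of each cross: Mcts2, Gab1, Impact and Usp29. Slc38a4, an amino acid transporter, had a share of 0.998 in 10 BC cells, Jade1 0.998 in 8, Zrsr1 0.981 in 6 and Sfmbt2 1 in 5, and none had a CB value in 3 cells or more. Their levels were lower in CB for Slc38a4, at 21.4 CPM in BC and 0, 0.201, 0.581 and 0.818 CPM in the CB cells (log2 difference -4.0), and for Jade1, at 59.4 CPM and 0.193, 0.302, 1.02 and 10.2 CPM (-3.94). Both held against each BC set, at -4.83 and -2.81 for Slc38a4 and -4.58 and -3.19 for Jade1. Sfmbt2, at -1.83, was lower than BC cells 1 to 11 (-2.85) and level with BC cells 31 to 45 (0.11). Of the 10 genes of this list tested for level 3 were more than 4-fold higher in BC, where 11.5% of all genes tested were, and none in CB. The median difference was -1.38, but it turned with the BC set, at -1.82 against BC cells 1 to 11 and 0.20 against BC cells 31 to 45.

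Impact, a regulator of translation imprinted in rodents (chromosome 18, 12954690 to 12992950), did not hold its paternal reading in every cell. Its share was 0.901 in 19 BC cells, and in the 3 CB cells with a value it was 0.273, 0.800 and 0.0323. Its level was 48.9 to 752 CPM in BC cells and lay below all of them in CB cells, at 20.8, 2.52, 39.6 and 28.8 CPM. In males the share was 0.985 in BC and 0.986 in the CB cell, in the Xist wt/ko CB females it was 0.920, and in the 7 other pairs the parental effect was 0.448 ± 0.0254 (SE, adjusted p = 0.000244, limma). Usp29, next to Peg3, had 0.838 in BC and 1, 0 and 0.672 in CB cells. Trappc9, listed as maternal in brain, was read from the B6 allele in both crosses, at 0.0163 in 19 BC cells and 1 in the 4 CB cells, and its strain effect in the other pairs was -0.288 ± 0.0554 (SE, adjusted p = 0.0107, limma). H13 (0.414 and 0.279), Gnas (0.355 and 0.30) and Tssc4 (0.484 and 0.559) were read from both alleles in both crosses as means over cells. Single BC cells ran from 0 to 1 for H13 and Tssc4 and from 0 to 0.881 for Gnas. Single CB cells ran from 0.0323 to 0.636 for H13, 0.107 to 0.594 for Gnas and 0.188 to 0.965 for Tssc4. Of 11 maternally expressed imprinted genes tested for level, 4 were more than 4-fold higher in BC, where 11.5% of all genes were, and none in CB. The 4 were Cdkn1c (-2.65), Ube3a (-2.62), Blcap (-2.56) and Grb10 (-2.36). The median of the list was -1.45, and 0.75 and -0.28 against the BC sets. Cdkn1c was higher than in BC cells 1 to 11 (0.75), and Ube3a was nearly level with BC cells 31 to 45 (-0.26).

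With all BC cells joined, total expression differed more often toward BC, but the balance depended on the BC set. Of 7427 genes with a mean of 10 CPM or more in a cross, 232 (3.12%) were more than 4-fold higher in CB and 855 (11.5%) in BC, on the scale of log2((mean CPM + 1)/(mean CPM + 1)). The median gene lay at -0.22. Scaling the cells by TMM, which moved that median to 0.12, gave 399 and 620, so the share of called genes that were higher in CB went from 21.3% to 39.2%. Cells 1 to 11 and 31 to 45 gave very different counts: 1092 genes (14.7%) were more than 4-fold higher and 891 (12%) lower in CB than in the first set, and 309 (4.16%) and 787 (10.6%) than in the second. Against both sets at once 152 genes (2.05%) were higher in CB and 305 (4.11%) lower. For scale, the 2 BC sets differed past 4-fold in 1370 genes (18.4%) higher in cells 31 to 45 and 555 (7.47%) lower. All 4 CB cells lay above all 19 BC cells in 52 genes (0.7%) and below them in 60 (0.808%).

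Of the 12 genes with the largest difference among the 52, 7 were silent or nearly so in the median BC cell. Thbs1, a secreted matrix protein (chromosome 2, 118111876 to 118127133), had 1 count in all BC cells together and 12.8, 59.6, 0.290 and 165 CPM in CB cells 17, 19, 20 and 21. Col5a1, a fibrillar collagen, had no read among the 155 M counts of the BC cells, which allows up to 0.0193 CPM on counting error alone, and 3.37, 12.9, 0.145 and 38.7 CPM in the CB cells. Cell 20 was thus close to the BC cells in both. In Akr1c21 (chromosome 13, 4574075 to 4586543) the CB cells had 452, 131, 143 and 206 CPM, above the highest BC cell at 56.1 CPM, and the median BC cell had no read. AU015228 had 38, 27.3, 38.6 and 66.9 CPM against at most 6.13 CPM in BC, and Reg1, a secreted lectin, 56.7, 12.4, 15 and 1.77 CPM against at most 0.367 CPM. Galnt3 and Stxbp6 had log2 differences of 3.60 and 3.27.

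The others had reads in the median BC cell. Alas1, the first enzyme of haem synthesis, had 69.9, 70.9, 50.1 and 66.9 CPM in CB cells and 0 to 19.2 CPM in BC cells (median 6.39). Tmem64, a membrane regulator of calcium and Wnt signalling (chromosome 4, 15265820 to 15286753), had 213, 275, 202 and 455 CPM against 0.381 to 180 CPM. Gpn3, a GTPase of RNA polymerase II assembly, had 539, 517, 210 and 368 CPM against 5.36 to 189 CPM. Nudt19, a peroxisomal hydrolase of coenzyme A, and Tmem5 had log2 differences of 2.92 and 2.73. In the male pair, which shares no cell with the female pair, 8 of these 12 genes were higher in CB, as were 31% of all genes tested, and 7 past 4-fold, as were 8.67%. Akr1c21 averaged 3.32 CPM in BC and 638 CPM in CB, AU015228 1.11 and 152 CPM, Tmem64 44.6 and 574 CPM, and Alas1 10.3 and 96.0 CPM. Nudt19 was at 43.6 and 25.5 CPM. The CB females labelled Xist wt/ko averaged 444 CPM of Tmem64, 57 CPM of AU015228 and 0.0238 CPM of Thbs1.

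**Figure D5:**
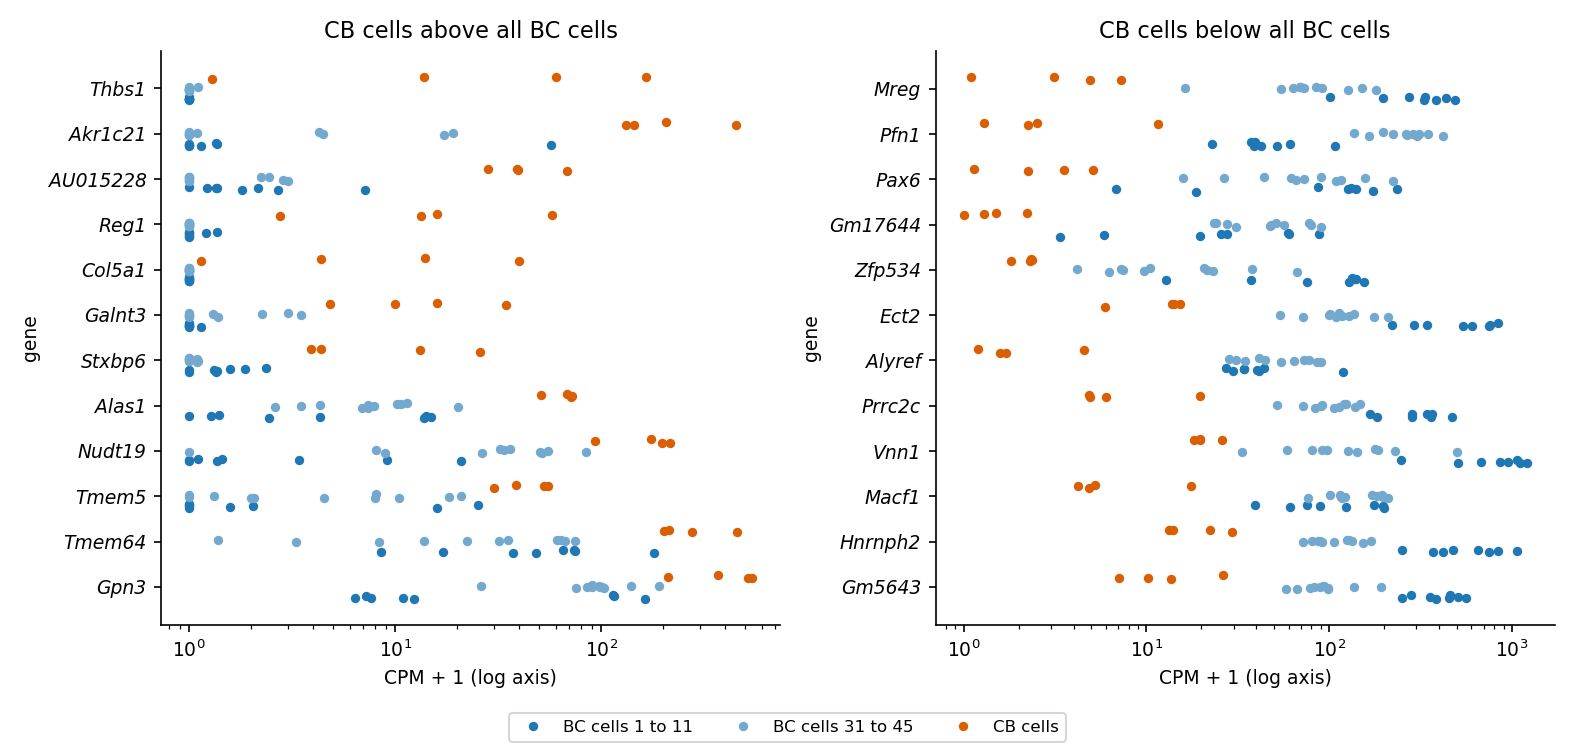
CPM + 1 of each cell on a log axis for the 12 genes with the largest difference among those whose 4 CB cells all lie above (left) or all below (right) the 19 BC cells; colours mark the BC sets and the CB cells. Most BC cells sit at or near 0 CPM in the first 7 genes on the left, and in several genes on the right, among them Hnrnph2 and Ect2, BC cells 1 to 11 lie above BC cells 31 to 45.

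Among the 60 genes below, the CB cells were low but seldom silent. Mreg, a melanosome transport protein (chromosome 1, 72159233 to 72212314), had 15.2 to 487 CPM in BC cells (median 126) and 0.0963, 2.12, 3.92 and 6.27 CPM in CB cells. Pfn1, the actin-binding protein profilin 1 (chromosome 11, 70651844 to 70656799), had 21.8 to 421 CPM and 1.25, 1.51, 0.290 and 10.5 CPM. Pax6, a transcription factor of eye and brain (chromosome 2, 105668896 to 105698410), had 5.78 to 233 CPM and 1.25, 2.52, 0.145 and 4.09 CPM. Their log2 differences were -5.50, -5.32 and -5.06. Behind these means stood 95 counts of Mreg in the CB cells (95% Poisson interval 76.9 to 116) and 107 of Pfn1 (87.7 to 129), which covers counting error only.

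The remainder of that group included regulators of the cytoskeleton, of RNA and of cell division. Macf1, a crosslinker of actin and microtubules, had 38.3 to 208 CPM in BC and 4.24, 3.83, 3.20 and 16.5 CPM in CB cells. Alyref, an mRNA export adaptor, had 26.1 to 117 CPM and 0.193, 0.705, 0.581 and 3.54 CPM. Ect2, an exchange factor needed for cytokinesis, had 52.5 to 843 CPM and 12.7, 4.94, 14.2 and 13.2 CPM. The pantetheinase Vnn1 (-4.40), Prrc2c (-4.42), the X-linked Hnrnph2 (-4.01), Zfp534 (-4.63), Gm17644 (-4.88) and Gm5643 (-4.0) completed the 12. Hnrnph2, Zfp534, Gm17644 and Gm5643 have close relatives or are themselves annotated copies, so their counts are uncertain. All 12 were past 4-fold against each BC set. In the male pair 11 of the 12 were lower in CB, as were 68.9% of all genes tested, and 9 past 4-fold, as were 36.7%. Pfn1 was at 289 CPM in BC and 2.58 CPM in the CB cell, Alyref at 106 and 1.10 CPM, and Vnn1 at 545 and 18 CPM. Zfp534 was at 14.3 and 22.3 CPM. The CB females labelled Xist wt/ko had means of 53.5 CPM of Pfn1, 496 CPM of Vnn1, 338 CPM of Prrc2c, 88.6 CPM of Mreg and 0.739 CPM of Pax6. For the first 4 this mean was above every wild-type CB cell. The mean profile of the wt/ko cells correlated at 0.868 with 4C BC and 0.674 with 16C BC, and at 0.875 with 4C CB and 0.623 with 16C CB. It thus resembled the stage before, and the parts of stage and genotype in these levels were not tested.

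The calls of the female pair were set beside pairs that share no cell with it. Of the 855 genes more than 4-fold higher in BC females, 571 were past 4-fold the same way in 8C males, which is 66.8% of them and 20.9% of the 2728 genes so called in males, where 36.7% of all genes were. Of the 232 genes higher in CB females 36 were, which is 15.5% of them and 5.59% of the 644 called in males (8.67% of all genes). Among 4C females 7.95% of the BC-higher genes and 11.2% of the CB-higher genes were past 4-fold the same way, against 3.03% and 1.74% of all genes, and they made up 30.2% and 20.2% of the genes called at 4C. Among 16C females the shares were 9.47% and 8.62%, against 4.93% and 1.72% of all genes, and 22.1% and 15.6% of the calls. In oocytes 7.02% of the BC-higher genes were higher in B6 and 4.31% of the CB-higher genes were higher in Cast, against 7.06% and 4.31% of all genes, and they were 11.5% and 3.12% of the calls in oocytes. The male values rest on a lone CB cell, which is 1 library.

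Trophectoderm genes prepare the outer epithelium of the blastocyst. Of 13 tested 7 were more than 4-fold higher in BC, where 11.5% of all genes were, and none in CB, with a median of -2.52, against -0.22 for all genes. The median was -1.90 against BC cells 1 to 11, -1.95 against BC cells 31 to 45 and -1.23 with TMM. Keratin 18 (Krt18, -4.29), the claudins Cldn6 (-3.22) and Cldn4 (-2.52), the sodium pump subunit Atp1b1 (-3.16), the transcription factors Gata3 (-3.02) and Eomes (-2.61), and the water channel Aqp3 (-2.89) were the 7. Cldn4 was at 11.3 to 245 CPM in BC cells and 27.5, 30.2, 12.3 and 5.73 CPM in CB cells, so the cells overlapped. Krt18 was at 0 to 226 CPM in BC cells with a median of 3.67 CPM, and at 0, 0, 0.290 and 2.86 CPM in CB cells. Tead4, at 33.2 to 596 CPM and 239, 87.4, 257 and 104 CPM, was not among them. Hand1 (0.42), Tspan8 (1.69) and Cldn7 (0.70) were at higher means in CB, and against BC cells 1 to 11 they stood at 3.81, 2.56 and 1.94, with Tead4 at 1.05. These genes were picked from the list after their values were seen, as were those named in the next lists.

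Pluripotency genes divided. Of 17 tested 5 were more than 4-fold higher in BC, where 11.5% of all genes were, and none in CB (3.12% of all genes). The median was -0.85, and it was 0.11 against BC cells 1 to 11 and -0.52 against BC cells 31 to 45. Klf5, a Krüppel-like factor of both early lineages, was at 0 to 602 CPM in BC cells and 5.01, 1.11, 0.290 and 16.6 CPM in CB cells. Its difference of -5.14 rested on the second BC set (-5.91), for against the first it was 0.11. Utf1 had the same pattern, at 0.79 and -3.88. Lin28a (-3.24 and -3.31), Prdm14 (-2.96 and -3.37) and Fgf4 (-3.34 and -2.35) were lower than both sets. Core factors were not among the 5: Pou5f1 was at 10.3 to 419 CPM in BC cells and 212, 179, 298 and 93.9 CPM in CB cells, and Nanog at 13 to 167 CPM and 7.80, 29.2, 14.4 and 57 CPM.

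Genes of compaction and polarity divided. Of 24 tested 4 were more than 4-fold higher in BC, where 11.5% of all genes were, and 1 in CB (3.12% of all genes). The median was -0.12 and became 0.51 with TMM (-0.14 and 0.0042 against the BC sets). E-cadherin (Cdh1), which drives compaction, was at 35 to 412 CPM in BC cells and 97.8, 139, 162 and 59.98 CPM in CB cells. The polarity gene Llgl2 (-4.43) and the kinase Mark2 (-2.74) were lower in CB, but Llgl2 was at 0.84 against BC cells 1 to 11 and Mark2 at -0.87. Amotl2 (-2.03) was lower than both sets. Myh9, non-muscle myosin heavy chain, was higher in CB at 3.85, 12.8, 0.871 and 41.3 CPM, against at most 6.36 CPM in BC cells. It was low in both crosses at this stage.

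Medians of the housekeeping lists depended on the BC set. For comparison, the median of all genes was -0.22 with the BC sets joined. It was 0.16 against BC cells 1 to 11, -0.18 against BC cells 31 to 45 and -1.27 in males. Beside the counts that follow, 11.5% of all genes were more than 4-fold higher in BC and 3.12% in CB. A count near those shares is not particular to a list. Of 83 cytosolic ribosomal protein genes 5 were more than 4-fold higher in BC and none in CB, with a median of 0.13. That median was 1.30 against BC cells 1 to 11, -0.27 against BC cells 31 to 45 and -1.72 in males. Of 71 nuclear genes of oxidative phosphorylation 8 were higher in BC and 1 in CB, with a median of -0.08 (0.23 with TMM), and 1.21 and -0.63 against the sets. Both lists therefore changed direction with the BC set used. Among maternal genes, of 6 in the zona, Fbxw and Nlrp clusters 3 were higher in BC, with a median of -2.46 (-3.11 and -1.45 against the sets): Oog3 (-3.79), Nlrp4f (-3.33) and Nlrp4c (-3.15). Of 14 oocyte genes 2 were higher in BC, with a median of 0.06 (0.40 and -0.25), and of 6 primitive endoderm genes 1 was higher in CB, with a median of 0.42. Of 5 genes of 2-cell activation 1 was higher in CB, Tcstv3, at 3.95, 45.7, 58.1 and 5.18 CPM against 0.110 to 11.7 CPM. Of 7 DNA methylation genes none was past 4-fold against all BC cells, with a median of -0.42 that was 2.1 against BC cells 1 to 11 and -0.33 against BC cells 31 to 45, and of 8 genes of p53 and stress 2 were higher in BC, Cdkn1a (-2.77) and Sesn2 (-2.05). Of 9 genes known to escape X inactivation 1 passed in each direction, with a median of -1.49 that rested on BC cells 1 to 11 (-1.72) more than on BC cells 31 to 45 (-0.16). Eif2s3x was at 417 to 1552 CPM in BC cells and 296, 320, 488 and 174 CPM in CB cells, and its paternal share was 0.410 and 0.584.

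A test with replication was possible only over pairs of stage and sex. Counts were summed within each of 22 groups and 11424 genes were fitted with edgeR, with the pair as a block. Across the 10 other pairs 1 gene passed (0.00875%), the oocyte gene Omt2b, lower in CB by a log2 difference of -2.80 ± 0.40 (SE, adjusted p = 0.0262, edgeR quasi-likelihood), with 980 genes at an unadjusted p under 0.05. No gene passed without the 2C female pair, with DESeq2 size factors or with limma. Without pairs in which a group held 1 cell the gene called was Lncenc1, a non-coding RNA, higher in CB (adjusted p = 0.0448, edgeR), which at 8C had 84.9 CPM in CB cell 17, no read in the other 3 CB cells and at most 0.347 CPM in BC cells. In the 8C female pair no gene passed with edgeR (223 at an unadjusted p under 0.05) or with limma (383), and 7 passed with DESeq2. For the difference between the 8C female pair and the others none passed with edgeR (161 at an unadjusted p under 0.05) or with limma (288), and 5 with DESeq2. The lone pair is assumed in this model to vary as the others do.

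The smallest p-values of the 8C female pair belonged mostly to genes lower in CB. Prrc2c, at 50.5 to 469 CPM in BC cells and 5.01, 3.83, 3.92 and 18.5 CPM in CB cells, had a log2 difference of -4.05 ± 0.884 (SE, adjusted p = 0.9999, edgeR), and 81.9 CPM in BC males and 60.01 CPM in the CB male. Eva1a had -5.36 ± 1.20, Intu -2.74 ± 0.715, Ccdc82 -3.12 ± 0.819 and Mreg -5.42 ± 1.5, none of which passed. Ccdc82 (chromosome 9, 13246917 to 13292517) was the most abundant, at 641 to 4567 CPM in BC cells and 144, 209, 72.5 and 150 CPM in CB cells, with 2350 CPM in BC males and 175 CPM in the CB male. Its mean was 8891 CPM in BC and 5030 CPM in CB females at 4C, and 56.8 and 24.2 CPM at 16C. Nynrin was the one among the smallest that was higher in CB (unadjusted p = 0.00191, adjusted p = 0.9999, edgeR), with 0, 0.101, 18.7 and 1.23 CPM in CB cells 17, 19, 20 and 21 and at most 0.214 CPM in BC cells, so cell 20 held most of it. Prrc2c, Eva1a, Mreg, Siae, Chit1 and 9530091C08Rik, lower in CB, and Nynrin, higher, were the 7 genes of DESeq2. No fold could be estimated there for Siae and Chit1, which had no count in the CB cells.

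Omt2b and its neighbour Omt2a, oocyte genes of unknown function in a cluster on chromosome 9, were nearly spent at 8C. Omt2b was at 1.94 to 105 CPM in BC cells (median 20.7) and 0.193, 12.2, 13.1 and 5.32 CPM in CB cells, and the cells overlapped. In oocytes it was at 5110 CPM in B6 and 3967 CPM in Cast, and in 4C females at 298 CPM in BC and 78.8 CPM in CB. The Khdc1 family of oocyte and early-embryo genes was uneven: Khdc1b was lower in CB (-2.79), and Khdc1a (0.27) and Khdc1c (0.02) were not. Khdc1a was at 77.5 to 1387 CPM in BC cells and 889, 700, 744 and 901 CPM in CB cells. The non-coding Lncenc1 had 84.9 CPM in CB cell 17, no read in the other 3 CB cells and 3 counts over all BC cells.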

How the data were processed

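Gene counts came from TopHat2 2.1.0 alignment to mm10, SAMtools and HTSeq 0.6.1, per the submitters' processing notes. The settings, the strand used in counting and the treatment of Cast variants are unknown: not given in the sources used here. All deposited counts are raw reads per gene without molecular identifiers. The authors' deposited allelic fraction per gene and cell was read as the paternal share, since X-linked genes lay near 0 in males. Another deposited table, a signal scaled by the authors for depth and gene length, served as an alternative. The mm10 reference is a B6 genome, which can favour B6 reads over variants; its part in the shares was not tested.

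Counts were scaled to CPM (counts per 1000000 counts). Folds used mean CPM + 1 over cells, for 7427 of 24499 genes with a mean of 10 CPM or more in a cross, called past 4-fold. Shares needed 10 counts in a cell. At least 3 cells per cross were needed in the 8C females only, and in the other pairs a group share could rest on 1 cell. Tests used edgeR 4.0.16 (sums of counts, TMM, quasi-likelihood), limma 3.58.1 with trend on group shares, or exact permutation of paired differences, with Benjamini-Hochberg adjustment over all genes tested and a threshold of 0.05. DESeq2 1.42.0 was an alternative. The fits were tested on simulated data. Groups followed the labels; 1 cell with conflicting labels at 2C followed its title. Named genes were the 12 genes with the largest difference in each direction among those whose cells did not overlap, the most abundant of each allelic class, imprinted and X-inactivation centre genes, and those with the smallest p in edgeR; others are said to have been picked later. The cells, gene lists and classes were chosen with earlier results of these data known. Coordinates are those of the RefSeq annotation of GRCm38, which is mm10. Replicates are cells that the labels do not tie to embryos, and intervals cover counting error only. A few single-gene results are not reported here.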

Additional observations from a re-analysis of the deposited data

Results flagged for a closer look

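The Dixon gap ratio is the gap from the highest or lowest cell to the nearest cell over the whole range. By this ratio 1 cell lay apart from the other 3 in 16 of 74 groups of 4 CB values. Its cutoff gives about 1 in 20 groups by chance only for normally distributed values. CPM and shares bounded at 0 and 1, in genes picked for large differences or extreme shares, need not follow that distribution. The 16 groups therefore cannot be read as more than chance gives. For CPM the ratio was 0.880 in Pfn1, 0.847 in Alyref, 0.922 in Macf1 and 0.920 in Prrc2c, in each of which CB cell 21 was highest though below every BC cell. It was 0.899 in Zfp534 and 0.837 in Ect2, where CB cell 19 was lowest. For the paternal share CB cell 21 stood apart in Gdf9 (0.949, with the highest share), Ddah1 (0.964), Fkbp6 (0.960), Epas1 (1) and Fthl17f (1), the last 4 with the lowest share. CB cell 17 stood apart in Pramel4 (0.853) and Rps15a (0.871), with the lowest share, and in Akr1c21 (1), with the highest. CB cell 19 stood apart in Gm20594 (1), lowest, and Morf4l1 (0.891), highest. A ratio of 1 means that the other 3 cells had identical shares, so even a small departure gives it: the Akr1c21 shares were 0.0025 and 0.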

How the results depend on the processing

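For the 12 genes with the largest difference in each direction among those whose cells did not overlap, the direction was kept under the alternatives run. Of 791 values 786 stayed on the same side of their threshold and 5 fell short of it. These genes were picked for cells that do not overlap. Leaving out cells, averaging them otherwise or changing the pseudocount therefore could not turn their direction, and its keeping there is no support. Other genes named from the lists turned direction without BC cells 31 to 45, among them Klf5 (0.11), Utf1 (0.79), Llgl2 (0.84) and Cdkn1c (0.75). Of 146 list medians 63 moved by more than the margin set. Genes more than 4-fold higher in CB numbered 232 and in BC 855. They were 102 and 413 with a pseudocount of 5, 91 and 280 at 50 CPM or more, and 348 and 1415 with no filter. The numbers were 439 and 599 with medians over cells, 399 and 620 with TMM, and 213 and 490 from the authors' length-scaled table. Without BC cells 31 to 45 they were nearly even, at 1043 in CB and 1098 in BC. Leaving out 1 cell gave 219 to 282 in CB and 838 to 1025 in BC. The autosomal classes (12 paternal, 6 maternal, 26 Cast, 43 B6) held 3 maternal and 15 Cast genes at shares of 0.10 and 0.90. With values in all 4 CB cells and 10 BC cells they held 7, 1, 13 and 25, and with medians over cells 36, 34, 64 and 116. Without 1 CB cell, needing fewer cells, they held 16 to 20, 12 to 23, 34 to 40 and 59 to 72. Without BC cells 31 to 45 the parental effect in other pairs was called for 10 genes (of 3143 tested) in place of 20. The parental effect in 8C females was called for 6 genes, 2 on an arcsine scale and 0 without trend (108 at an unadjusted p under 0.05, limma), and the strain effect for 37, 15 and 19. In other pairs edgeR called 1 gene, 0 without the 2C female pair, 0 with DESeq2 size factors, 2 with no filter, and limma 0; DESeq2 called 508. In 8C females DESeq2 called 7, and 5 for the difference, where edgeR called 0. Without 1 CB cell edgeR called 0 in 8C females, 1 in other pairs and 0 for the difference, and limma 20 to 23 and 5 to 7 parental and 418 to 450 and 44 to 48 strain genes. The cause of these shifts was not tested. No paired analysis was possible because the BC and CB cells share no number and the fits used sums per group, which carry no number. With 4 CB cells and no embryo named, the differences at this stage describe these libraries.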
